A study of Homo sapiens with 54 samples.

Results

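The 66 tRNA genes described here are the nuclear tRNA genes of chromosomes 10 to 15 and 18 to 22, out of 422 in the human genome that were measured. They were chosen by position alone: a numbered RefSeq symbol on GRCh38, a start beyond the first 100 kb of the chromosome, and not TRU-TCA1-1. No measured value is part of this rule, but the genes were chosen with earlier results of these data known. Chromosome 14 holds 19 of them, chromosome 11 has 13, chromosomes 12 and 15 have 9 each, chromosome 19 has 6, chromosome 13 has 4, chromosome 10 has 3, chromosomes 18, 21 and 22 have 1 each, and chromosome 20 has 0.

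The cells were T47D, an established human breast cancer line described as positive for the estrogen and progesterone receptors, grown in medium with serum and insulin. They received ethanol vehicle or the synthetic progestin R5020 for 1 h and were then fixed for chromatin immunoprecipitation and sequencing (ChIP-seq). The antibodies were against the progesterone receptor (PR), Maf1, Brf1, the polymerase subunits POLR3A, POLR3C, POLR3G and POLR3GL, and histone H3 acetylated at lysine 27 (H3K27Ac). Each antibody and treatment had 3 libraries and 1 deposited peak list, which gives 16 lists with no spread between replicates. No p-value is therefore given, and intervals cover the counting of genes only. In 4 libraries titled R5020 (2 for POLR3C and 1 each for POLR3G and POLR3GL) the treatment tag reads ethanol, so the R5020 values of these 3 subunits rest on the titles. Of 7 luminal marker genes (ESR1, PGR, GATA3, FOXA1, KRT8, KRT18 and KRT19), 7 carried H3K27Ac in both treatments. Of 4 basal marker genes, VIM and TP63 carried it in both, and KRT5 and KRT14 in neither. The acetylation lists are long, with 88870 and 112543 regions, and the share of all genes that carry the mark was not computed.

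A tRNA gene carries its promoter inside the transcribed sequence, as the A box and the B box. The factor TFIIIC binds these boxes and places TFIIIB, which contains Brf1, just upstream of the first base. TFIIIB then recruits RNA polymerase III. POLR3A is the largest catalytic subunit, POLR3C belongs to a subcomplex used in initiation, and POLR3G and POLR3GL are paralogs that occupy the same place in alternative forms of the enzyme. Maf1 is a repressor that binds the polymerase and keeps it from TFIIIB, and PR is a hormone-activated transcription factor that binds DNA at progesterone response elements.

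The RefSeq promoter table used here (GRCh38.p14) has an entry for 0 of the 66 genes. For 4 genes, all or nearly all of the sequence lies in the promoter window of a neighbouring gene, and all 4 are shown. They were not chosen by their occupancy. Each is written 5′ to 3′ on the strand on which its boxes were found, and capitals mark the matches to the A box consensus and to the B box, searched as GGTTCGA, any 2 bases and CC, on both strands.
TRF-GAA1-5: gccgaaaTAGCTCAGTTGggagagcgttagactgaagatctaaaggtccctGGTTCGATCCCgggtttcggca
TRP-TGG3-2: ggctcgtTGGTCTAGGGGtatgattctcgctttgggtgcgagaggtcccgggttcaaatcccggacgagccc
TRH-GTG1-9: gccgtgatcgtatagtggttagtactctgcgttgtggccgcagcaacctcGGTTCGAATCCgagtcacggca
TRT-AGT1-3: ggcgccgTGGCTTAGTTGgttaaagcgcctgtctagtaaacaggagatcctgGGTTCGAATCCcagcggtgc
The first is a phenylalanine tRNA gene at chr13:94549650-94549722 (minus strand), 244 bp from an end of DCT. The second is a proline gene at chr14:20684016-20684087 beside ANG, the third a histidine gene at chr15:45201151-45201222 beside SHF, and the fourth a threonine gene at chr19:33177057-33177128, shown for 72 of its 74 bases. The last 3 are on the plus strand. The A box matches begin at base 8 and the B box matches at bases 51 to 53. The A box consensus was searched as TRGYNNARNNG, where R is A or G, Y is C or T and N is any base. No match to it was found in TRH-GTG1-9, and no B box match in TRP-TGG3-2. The latter holds ggttcaaatcc, with GGTTCAA in place of the searched GGTTCGA. A search for fixed strings misses such variants, so a missing match does not show that a box is absent. The B box string occurs in 0.185% of 35116 promoter windows of 300 bases.

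A gene was counted as having a region when a peak lay within 200 bp of it. POLR3A was found at 60 of the 66 genes with vehicle (90.9%, 95% Wilson interval 81.6 to 95.8) and at 62 with R5020 (93.9%, 85.4 to 97.6). Over all 422 tRNA genes the shares were 85.3% and 85.1%. No gene had it under vehicle and lacked it under R5020 (1.90% of all 422 did), and 2 had it only under R5020 (1.66% of all 422). These 2 were TRY-GTA5-3, a tyrosine gene at chr14:20653099-20653192, and TRK-CTT6-1, a lysine gene at chr18:46089305-46089377 within ATP5F1A.

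The deposited fold is the authors' enrichment of a peak over background, and it gives an order within 1 list. In the POLR3A vehicle list it ran from 5.72 to 58.0 over the 60 genes, with a median of 47.1, and in the R5020 list from 5.27 to 71.4, with a median of 51.9. The 60 genes lay under 48 regions with vehicle, and the median region stood at percentile 84.6 of its list. TRA-TGC3-2 (alanine), TRE-TTC2-1 (glutamate), TRS-GCT4-2 (serine) and TRG-GCC1-5 (glycine) shared 58.0, the highest value of the whole vehicle list. Tied regions were given their average rank, and this value stood at percentile 99.1, so regions away from the 66 genes also held it. TRK-CTT1-2, a lysine gene, was the only gene of the 66 at the highest value of the R5020 list, 71.4. That value also stood at percentile 99.1 and was thus shared with regions elsewhere. Among the 66 genes, TRE-TTC2-1 (71.1) and TRL-AAG2-3, a leucine gene (70.1), followed.

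Genes with no listed Brf1 were at the low end of POLR3A. TRF-GAA1-5 had a POLR3A fold of 5.72 with vehicle and 10.0 with R5020. TRN-GTT2-3 (asparagine, chr10:22229509-22229582) had 7.97 and 11.6, and TRC-GCA8-1 (cysteine) had 9.38 and 6.96. The 2 genes with POLR3A under R5020 alone had 5.27 (TRY-GTA5-3) and 5.53 (TRK-CTT6-1). These were the 5 genes with POLR3A and no Brf1 region in either treatment, and none of the 5 had a PR, Maf1, POLR3C, POLR3G or POLR3GL region in any list. One of them, TRF-GAA1-5, has matches to both boxes in the sequence above. Genes with POLR3A and no Brf1 were not counted among the other tRNA genes. Over all tRNA genes measured, the R5020 shares were 85.1% for POLR3A and 73.2% for Brf1. POLR3A without Brf1 was thus not confined to the genes described here.

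**Figure D1:**
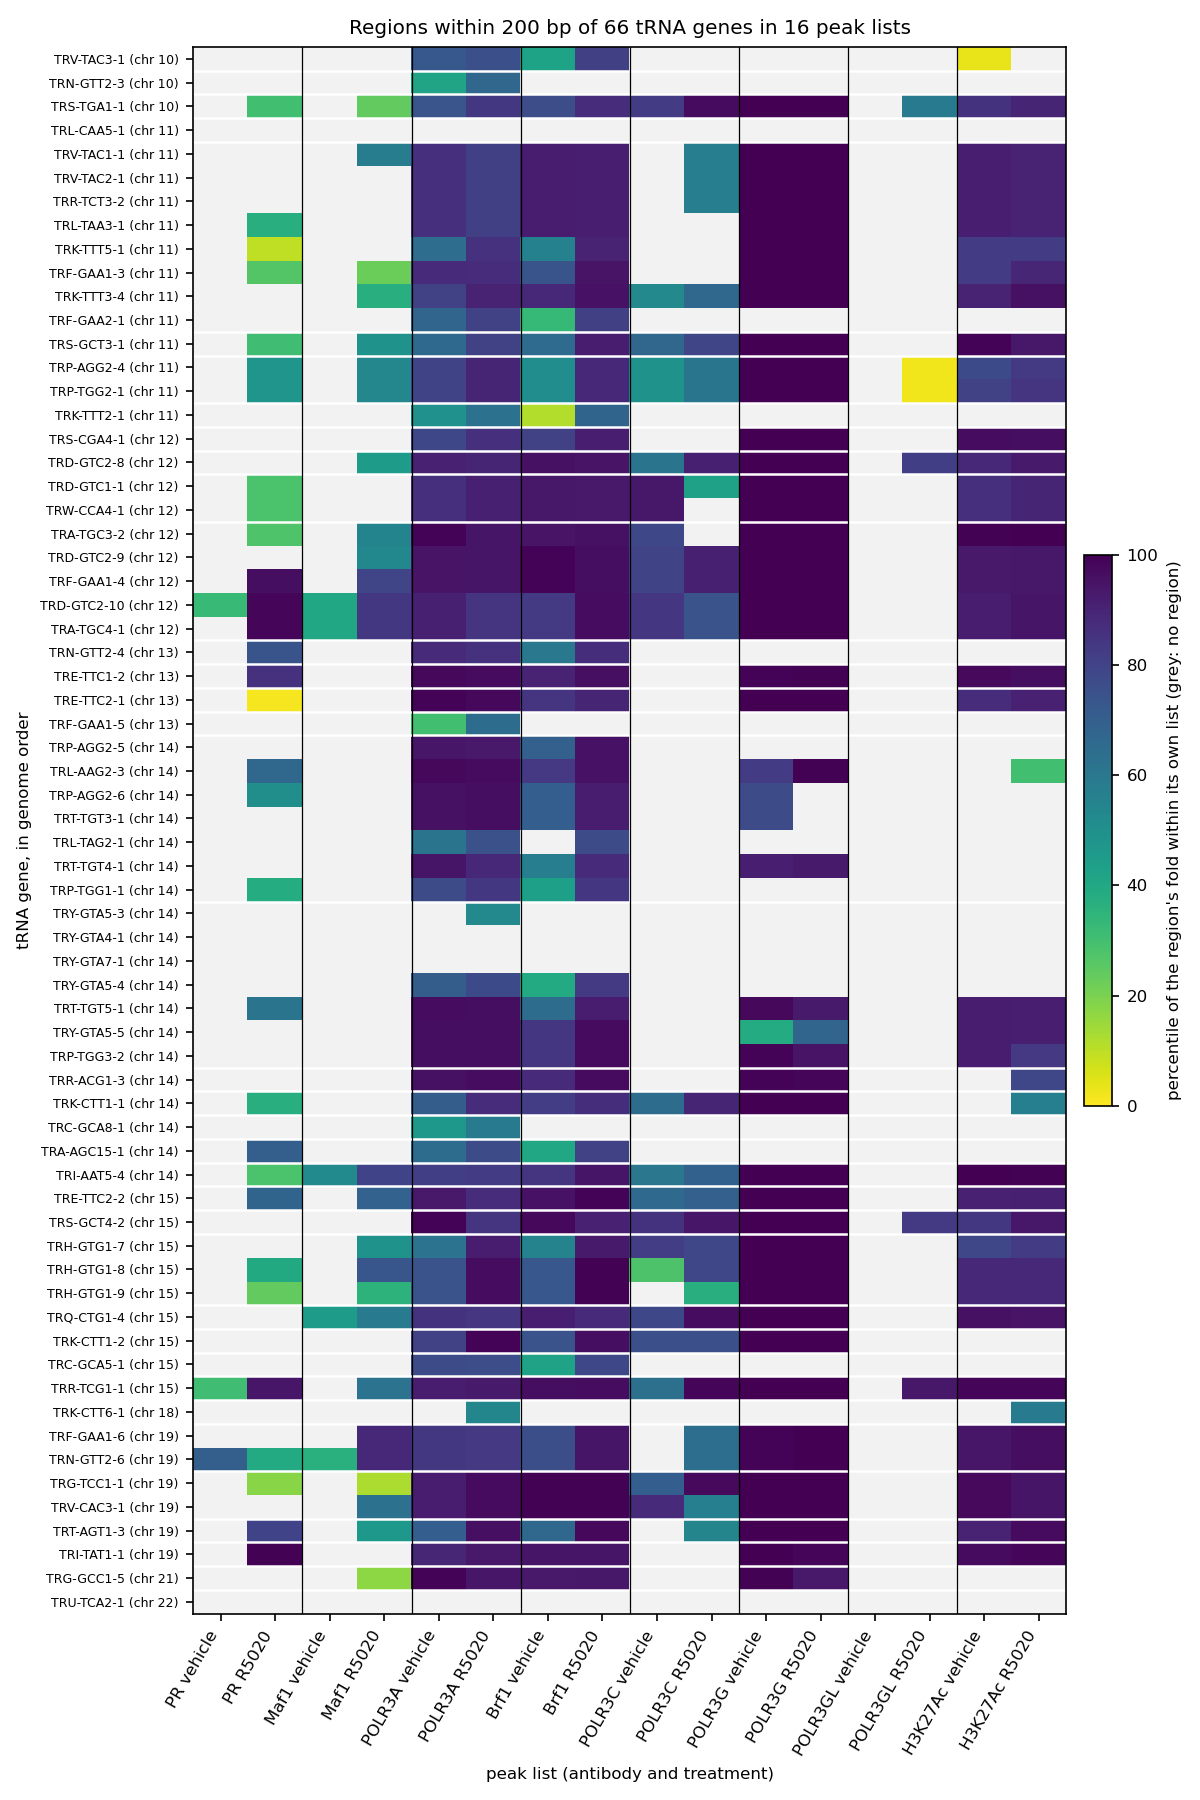
Regions at the 66 tRNA genes (rows, genome order, white lines between clusters) in the 16 lists (columns); the colour gives the percentile of the region's fold in its own list, and grey means no region within 200 bp. POLR3A and Brf1 fill most rows in both treatments, PR and Maf1 fill 31 and 26 rows with R5020 and 3 and 5 with vehicle, and 4 rows are empty throughout.

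No region in any list was found at 4 genes. TRL-CAA5-1 (leucine, chromosome 11), TRY-GTA4-1 and TRY-GTA7-1 (tyrosine, chromosome 14) and TRU-TCA2-1, a selenocysteine-type gene within PARVB on chromosome 22, lacked POLR3A as well as every other mark. The 2 tyrosine genes sit between TRY-GTA5-3 and TRY-GTA5-4, and TRY-GTA5-4 had POLR3A folds of 32.6 with vehicle and 31.4 with R5020. Genes with no region in any list were not counted among the other tRNA genes.

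Brf1 was found at 56 genes with vehicle (84.8%, 74.3 to 91.6; 71.1% of all 422) and at 57 with R5020 (86.4%, 76.1 to 92.7; 73.2% of all 422). All 56 vehicle genes kept it under R5020 (1.18% of all 422 had it under vehicle only), and 1 gene had it only under R5020 (3.32% of all 422). That 1 was TRL-TAG2-1, a leucine gene of chromosome 14 with a Brf1 fold of 12.9, whose POLR3A fold was 21.7 with vehicle and 21.6 with R5020. The highest Brf1 folds with vehicle were 50.7 at the chromosome 19 pair TRG-TCC1-1 and TRV-CAC3-1, under 1 region, and 50.4 at TRD-GTC2-9 and TRF-GAA1-4, again under 1 region. With R5020 they were 88.1 at the histidine genes TRH-GTG1-8 and TRH-GTG1-9, and 87.8 at TRG-TCC1-1 and TRV-CAC3-1.

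The summits of the 2 factors lay at different places on the gene. The POLR3A summit fell inside a tRNA gene in 47 of 48 regions with vehicle and in 49 of 50 with R5020. At the other 356 tRNA genes the shares were 96.5% and 95.7%. The Brf1 summit fell outside the gene in 40 of 44 and 39 of 44 regions. At the other 356 tRNA genes it did so in 171 of 198 and 155 of 207. The median distance at the genes described here was 10.5 bp with vehicle and 11.5 bp with R5020. Among regions over a single gene with both factors, the 2 summits were a median of 47 bp apart (34 genes with vehicle, 33 with R5020). Strand can be read for the sequences shown above. At TRT-AGT1-3 the Brf1 summit lay 8 bases upstream of the first base with vehicle and 9 upstream with R5020, and the POLR3A summit 65 and 55 bases downstream of it. At TRP-TGG3-2 the Brf1 summits were 15 and 8 bases upstream and the POLR3A summits 37 and 24 bases downstream.

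The other polymerase subunits were found at fewer of the same genes. POLR3G was at 47 genes with vehicle (71.2%; 51.2% of all 422) and 45 with R5020 (68.2%; 48.1%). It was listed under vehicle only at 2 genes (3.79% of all 422) and under R5020 only at 0 (0.711%). Its regions were wide, with a median of 2099 bp in the vehicle list, and stood at the median percentile 99.9 of that list. POLR3C was at 24 genes with vehicle (36.4%; 23.5% of all 422) and 29 with R5020 (43.9%; 27.7%), of which 22 were the same. The other genes were 2 with vehicle only (2.37% of all 422) and 7 with R5020 only (6.64%). POLR3GL was at 0 genes with vehicle (upper limit 5.50%; 0% of all 422) and at 6 with R5020 (9.09%; 2.37%). The 6 were TRS-TGA1-1, TRP-AGG2-4 and TRP-TGG2-1 under 1 region, TRD-GTC2-8, TRS-GCT4-2 and TRR-TCG1-1, with folds of 2.24 to 3.69. All 6 also had POLR3C and POLR3G under R5020. These R5020 lists include the libraries tagged ethanol, and the part of that conflict in the values was not tested.

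**Figure D2:**
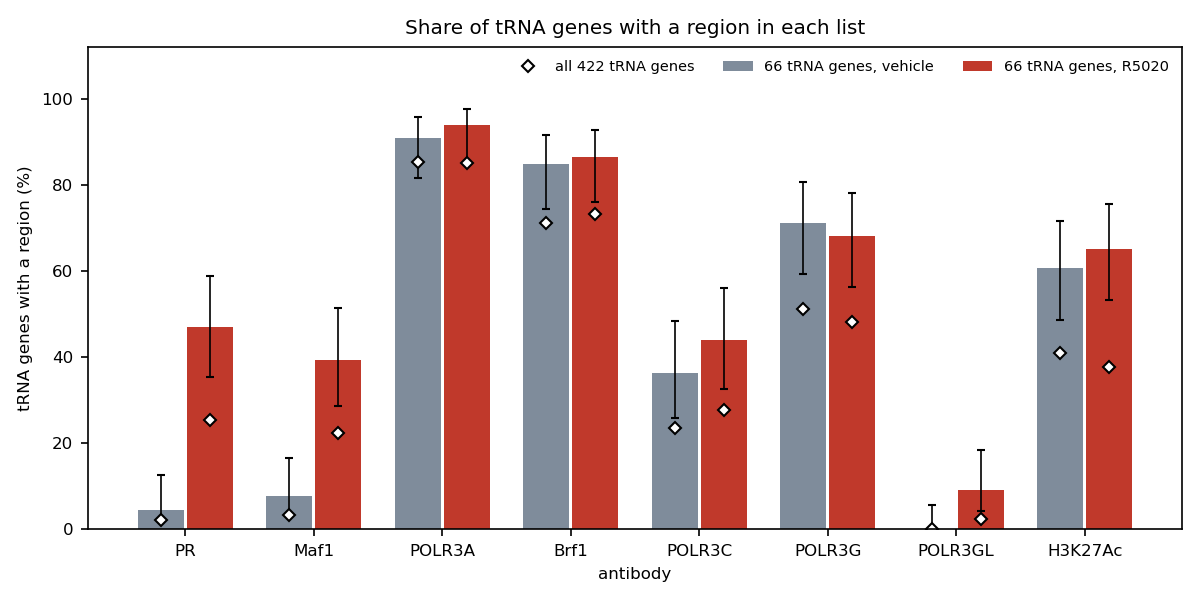
Share of the 66 tRNA genes with a region within 200 bp (bars, percent; grey vehicle, red R5020; error bars 95% Wilson intervals) for each antibody, and the share over all 422 tRNA genes (white diamonds). POLR3A stands at 90.9% and 93.9%, and PR at 4.55% with vehicle and 47% with R5020.

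PR was found at 3 of the 66 genes with vehicle (4.55%, 1.56 to 12.5; 2.13% of all 422) and at 31 with R5020 (47%, 35.4 to 58.8; 25.4% of all 422). All 3 vehicle genes were among the 31, and 28 had PR with R5020 alone (23.2% of all 422). The 3 were TRD-GTC2-10 (aspartate, vehicle fold 3.56), TRR-TCG1-1 (arginine, 3.51) and TRN-GTT2-6 (asparagine, 4.81). The R5020 PR list is far longer than the vehicle list, 173129 regions against 6663. With the 6663 top regions of each list by q-value, PR was found at 4 genes with R5020 and at 3 with vehicle, and these 4 were TRF-GAA1-4, TRD-GTC2-10, TRA-TGC4-1 and TRI-TAT1-1.

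The 32 R5020 PR regions at the 66 genes had a median fold of 4.87, below the median of the list, 5.90, and their median percentile was 38.5. The 77 regions at the other 356 tRNA genes had a median fold of 6.28 and a median percentile of 53.3. A few stood at the other end. TRI-TAT1-1, an isoleucine gene 409 bp from PLEKHG2 on chromosome 19, had a PR region with a fold of 49.3 (chr19:39411200-39412040, percentile 99.2) and on its other side a second with 10.4 (chr19:39412448-39412965). TRD-GTC2-10 and TRA-TGC4-1, neighbours on chromosome 12, shared a region of 2893 bp with a fold of 44.4 (chr12:124938210-124941102). TRF-GAA1-4, also on chromosome 12, had 35.4 (chr12:124927758-124928786), and TRR-TCG1-1, 249 bp from POLG on chromosome 15, had 29.7 (chr15:89334539-89335575). These 5 were the only genes of the 66 whose PR region stood above percentile 90 of the list.

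Next in order were TRE-TTC1-2, a glutamate gene within ELF1 (fold 17.2), TRT-AGT1-3 (13.3), TRN-GTT2-4 (10.7), TRA-AGC15-1 (9.28) and TRE-TTC2-2 (8.78). The lowest was TRE-TTC2-1, with 2.49. Thus TRE-TTC2-1 had one of the highest POLR3A folds and the lowest PR fold of the 31.

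PR summits were off the tRNA gene. Of the 32 R5020 PR regions, 2 had the summit inside a gene (6.25%; at the other 356 tRNA genes, 3.90% of 77 regions), and the median distance was 192.5 bp, with 16 beyond 200 bp and the farthest at 952 bp. The 2 with a summit inside were those at TRE-TTC2-1 and TRH-GTG1-8. By contrast, 11 of 23 R5020 Maf1 regions had the summit inside the gene (35 of 65 at the other 356 tRNA genes). The median distance of the 23 was 3.00 bp. The 4 PR regions above percentile 90 by fold had summits 108 to 952 bp away (median 514 bp), and the 19 below the middle of the list 0 to 444 bp (median 149 bp). A region was joined to a gene by its edge, so a wide region can have a farther summit. The joining distance mattered for PR: a region overlapped the gene at 19 genes, lay over 100 and up to 200 bp away at 5 (TRL-TAA3-1, TRW-CCA4-1, TRE-TTC1-2, TRK-CTT1-1 and TRI-TAT1-1), and lay over 200 and up to 300 bp away at 4 more (TRK-TTT3-4, TRD-GTC2-8, TRK-CTT6-1 and TRF-GAA1-6), which were not counted.

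**Figure D3:**
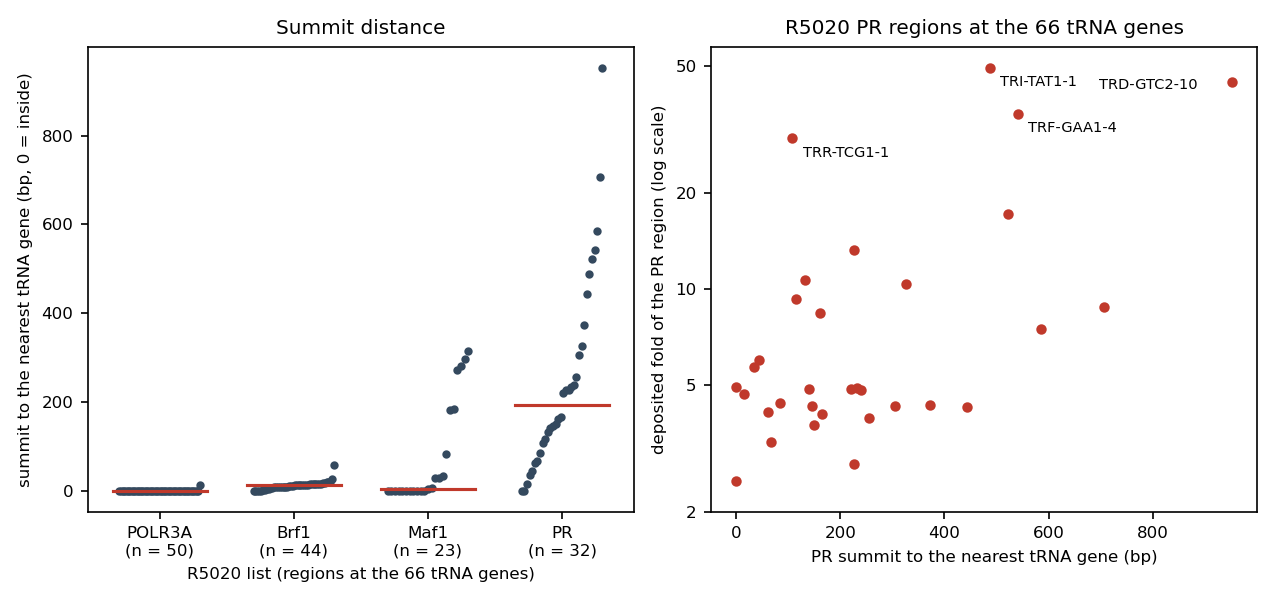
Left, distance in bp from the summit of each R5020 region at the 66 tRNA genes to the nearest tRNA gene (0 means inside; red lines are medians; points are regions in order of distance). Right, the same distance for PR against the deposited fold of the PR region on a log axis; POLR3A summits are at 0 to 12 bp, PR summits reach 952 bp, and the 4 highest PR folds lie 108 to 952 bp away.

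In 6 cases the R5020 PR summit at one of these genes fell within the RefSeq promoter window of a neighbour: B4GAT1-DT, ZNF839, NDUFS7, DPP9, LOC124904691 and PLEKHG2. The core of the progesterone response element was searched as ACANNNTGT, which is its own reverse pattern, and the hexamer TGTTCT, a single arm of the element, on both strands. The core was found in 1 of the 6 windows, that of PLEKHG2, and in 5.37% of all 35116 windows of the same length. The hexamer was found in 0 of the 6 and in 14.8% of all, and TATAA in 0 of the 6 and in 20.4% of all. The 2 stretches below are shown because one holds the only match and the other lies under a PR summit near TRN-GTT2-6, where PR was listed in both treatments. Each covers up to 40 bases on either side of the R5020 summit, before the start of the named gene and on its strand (plus), and capitals mark the core.
PLEKHG2: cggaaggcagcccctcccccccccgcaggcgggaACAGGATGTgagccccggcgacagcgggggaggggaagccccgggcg
NDUFS7: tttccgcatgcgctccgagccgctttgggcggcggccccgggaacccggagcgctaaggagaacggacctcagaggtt
The first is chr19:39412546-39412626, around the second PR region of TRI-TAT1-1 (fold 10.4). The second is chr19:1383829-1383906, around a region with a fold of 4.89.

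Maf1 regions were listed at 5 of the 66 genes under vehicle (7.58%, 3.28 to 16.5; 3.32% of all 422) and at 26 with R5020 (39.4%, 28.5 to 51.5; 22.3% of all 422). The 5 were among the 26, and 21 had Maf1 with R5020 alone (19.2% of all 422). With vehicle alone it was at 0 (0.237% of all 422). The 5 genes were TRI-AAT5-4 (vehicle fold 3.93), TRQ-CTG1-4 (3.76), TRA-TGC4-1 and TRD-GTC2-10 (3.66, 1 region) and TRN-GTT2-6 (3.59). With R5020 the highest folds were 8.26 at TRF-GAA1-6 and TRN-GTT2-6, under 1 region beside NDUFS7, and 7.09 at TRA-TGC4-1 and TRD-GTC2-10. TRI-AAT5-4 followed with 6.32, TRF-GAA1-4 with 6.25, TRH-GTG1-8 with 5.55, TRE-TTC2-2 with 5.20, TRV-CAC3-1 with 4.85 and TRR-TCG1-1 with 4.78. The 23 Maf1 regions had a median fold of 4.41, close to the list median of 4.30. With the 3049 top Maf1 regions of each list by q-value, 0 of the 66 genes had Maf1 under R5020 and 5 under vehicle.

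H3K27Ac, which marks active promoters and enhancers, was at 40 genes with vehicle (60.6%, 48.6 to 71.5; 41.0% of all 422) and 43 with R5020 (65.2%, 53.1 to 75.5; 37.7% of all 422). It was at 39 of them in both treatments, at 1 with vehicle alone (4.50% of all 422) and at 4 with R5020 alone (1.18%). The 1 was TRV-TAC3-1, and the 4 were TRL-AAG2-3, TRR-ACG1-3, TRK-CTT1-1 and TRK-CTT6-1, with R5020 folds of 3.24 to 5.47. Its summit lay outside the tRNA gene in 41 of 42 R5020 regions, at a median distance of 299.5 bp. At the other 356 tRNA genes it lay outside in 107 of 107, at a median of 273 bp.

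The shares with PR and with Maf1 were compared between acetylated and other genes. Of 43 genes with POLR3A and R5020 H3K27Ac, 27 had R5020 PR (62.8%, 47.9 to 75.6), and of 19 without H3K27Ac, 4 had it (21.1%). The difference was 41.7 percentage points (Newcombe interval 14.9 to 59.7). Among the other 356 tRNA genes, it was 49.3 points for those with POLR3A. For the genes described here the difference was 56 points (19.4 to 75.0) when each cluster was counted once. A cluster then counted as having a mark if any of its genes had it. The marks could thus lie at different genes, and larger clusters had more genes at which to score. When a summit, rather than an edge, had to lie within 200 bp for every antibody, the difference was -30.2 points (-45.1 to 4.23). When the region had to overlap the gene it was 18 points (-5.19 to 40.2). Maf1 was at 25 of the 43 (58.1%) and at 1 of the 19 (5.26%), a difference of 52.9 points (28.5 to 67.0). Among the other 356 tRNA genes, those with POLR3A had Maf1 at 65 of 115 (56.5%) and 3 of 190 (1.58%), a difference of 54.9 points. The 1 of the 19 was TRG-GCC1-5 on chromosome 21, with a Maf1 fold of 3.23.

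Maf1 was then compared between genes with and without PR. Of 31 genes with R5020 PR, 17 had Maf1 (54.8%, 37.8 to 70.8), and of 31 genes with POLR3A and no PR, 9 had it (29.0%), a difference of 25.8 points (1.32 to 46.4). The interval reached 0 with -log10 q of at least 5, where the difference was 21.7 points (-2.06 to 42.5), and by the summit, where it was 9.51 points (-16.6 to 38.1). It was 45.8 points (18.9 to 64.1) when regions had to overlap the gene and 50.5 points at 1 kb. Among the other 356 tRNA genes, those with POLR3A had shares of 59.2% of 76 and 10.0% of 229. Whether the 2 differences, 25.8 points here and 49.2 there, differ was not tested. The 31 genes here with PR and the 31 without also differed in R5020 H3K27Ac. With PR, Maf1 was at 17 acetylated genes and absent from 10, and at 0 unacetylated genes and absent from 4. Without PR, Maf1 was at 8 acetylated genes and absent from 8, and at 1 unacetylated gene and absent from 14. The part of H3K27Ac in the 25.8 points was not tested. PR folds of genes with and without Maf1 overlapped, 3.74 to 44.4 with Maf1 (median 4.92) and 2.49 to 49.3 without (median 5.42).

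Sorted by these 3 marks, the 62 genes with POLR3A fell into a few groups. All 3 were present at 17 genes, among them TRS-TGA1-1, TRA-TGC3-2, TRF-GAA1-4, TRR-TCG1-1 and TRT-AGT1-3. PR and H3K27Ac without Maf1 were at 10, including TRI-TAT1-1 and TRE-TTC1-2, and Maf1 and H3K27Ac without PR at 8, including TRF-GAA1-6 and TRQ-CTG1-4. PR alone of the 3 was at 4 genes, TRN-GTT2-4, TRP-AGG2-6, TRP-TGG1-1 and TRA-AGC15-1. H3K27Ac alone was at 8, Maf1 alone at 1 and none of the 3 at 14. PR with Maf1 and without H3K27Ac occurred at 0 genes. Of the 19 genes without H3K27Ac, 4 had PR and 1 had Maf1, so at most 1 could have had both. These groups were not counted over all 422 tRNA genes.

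Polymerase and Brf1 folds overlapped between genes with and without PR. In the vehicle POLR3A list, the 31 genes that had PR under R5020 ranged from 24.6 to 58.0 (median 47.1) and the 29 others from 5.72 to 58.0 (median 46.9). In the R5020 list the ranges were 29.4 to 71.1 (median 57.9) and 5.27 to 71.4 (median 45.9). Neither list had a gene with PR among its 5 lowest POLR3A values. The R5020 Brf1 median was 73.3 over 31 genes with PR (18.9 to 88.1) and 66.8 over 26 without (6.82 to 87.8). In the vehicle Brf1 list the medians were 36.5 and 37.6. Folds were also set out by acetylation. The R5020 Brf1 median was 74.0 over 42 genes with H3K27Ac (45.6 to 88.1). Over 15 genes without it the median was 33.1 (6.82 to 78.4). For R5020 POLR3A the medians were 57.9 over 43 genes with H3K27Ac and 31.4 over 19 without, with overlapping ranges. These are values within 1 list each and were not tested.

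The 66 genes formed 37 clusters when genes up to 20 kb apart were linked, of which 28 were single genes, 4 were pairs and 5 held 3 or more genes. The chromosome 11 cluster (chr11:59550629-59566452, 8 genes for valine, arginine, leucine, lysine and phenylalanine tRNAs) had POLR3A and Brf1 at 8 of 8 genes in both treatments. Its first 4 genes lay under 1 POLR3A region with a fold of 47.1 with vehicle and 37.2 with R5020. R5020 PR was at TRL-TAA3-1, TRK-TTT5-1 and TRF-GAA1-3, and R5020 Maf1 at TRV-TAC1-1, TRF-GAA1-3 and TRK-TTT3-4, so 1 of the 8 genes had both. The last gene, TRF-GAA2-1, had neither, and no H3K27Ac.

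The chromosome 12 cluster (chr12:124921755-124940037, 5 genes for alanine, aspartate and phenylalanine) carried most of the marks at every gene. POLR3A, Brf1, POLR3G, H3K27Ac and R5020 Maf1 were at 5 of 5 genes, and R5020 PR at 4. The gene without PR was TRD-GTC2-9, which shares its POLR3A region (fold 56.4 with vehicle, 65.9 with R5020) with TRF-GAA1-4. The chromosome 15 cluster of 3 histidine genes at SHF (chr15:45198606-45201222) had R5020 Maf1 at 3 of 3 and PR at 2. Its POLR3A folds were 21.9 at TRH-GTG1-7 and 36.6 at the 2 others with vehicle, and 61.2 and 69.6 with R5020.

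On chromosome 14, 14 genes lay between 20609336 and 20684087, in 2 clusters of 7 that a gap just over 20 kb parted. They serve proline, leucine, threonine and tyrosine. POLR3A was at 11 of the 14 with vehicle (folds 21.7 to 57.8, median 56.7) and at 12 with R5020. H3K27Ac was at 3 with vehicle and 4 with R5020, against 39 of the 52 other genes with R5020. R5020 Maf1 was at 0 of the 14 (Wilson upper bound 21.5%), against 26 of the 52 others, and POLR3C at 0 of 14 in both treatments. R5020 PR was at 4 of the 14, TRL-AAG2-3 (fold 8.41), TRP-AGG2-6 (5.97), TRT-TGT5-1 (7.47) and TRP-TGG1-1 (4.86), against 27 of the 52 others. The polymerase values were uneven: TRY-GTA4-1 and TRY-GTA7-1 had no POLR3A region, TRY-GTA5-3 had one with R5020 alone (5.27), and TRL-TAG2-1 had the lowest vehicle fold of the 11.

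**Figure D4:**
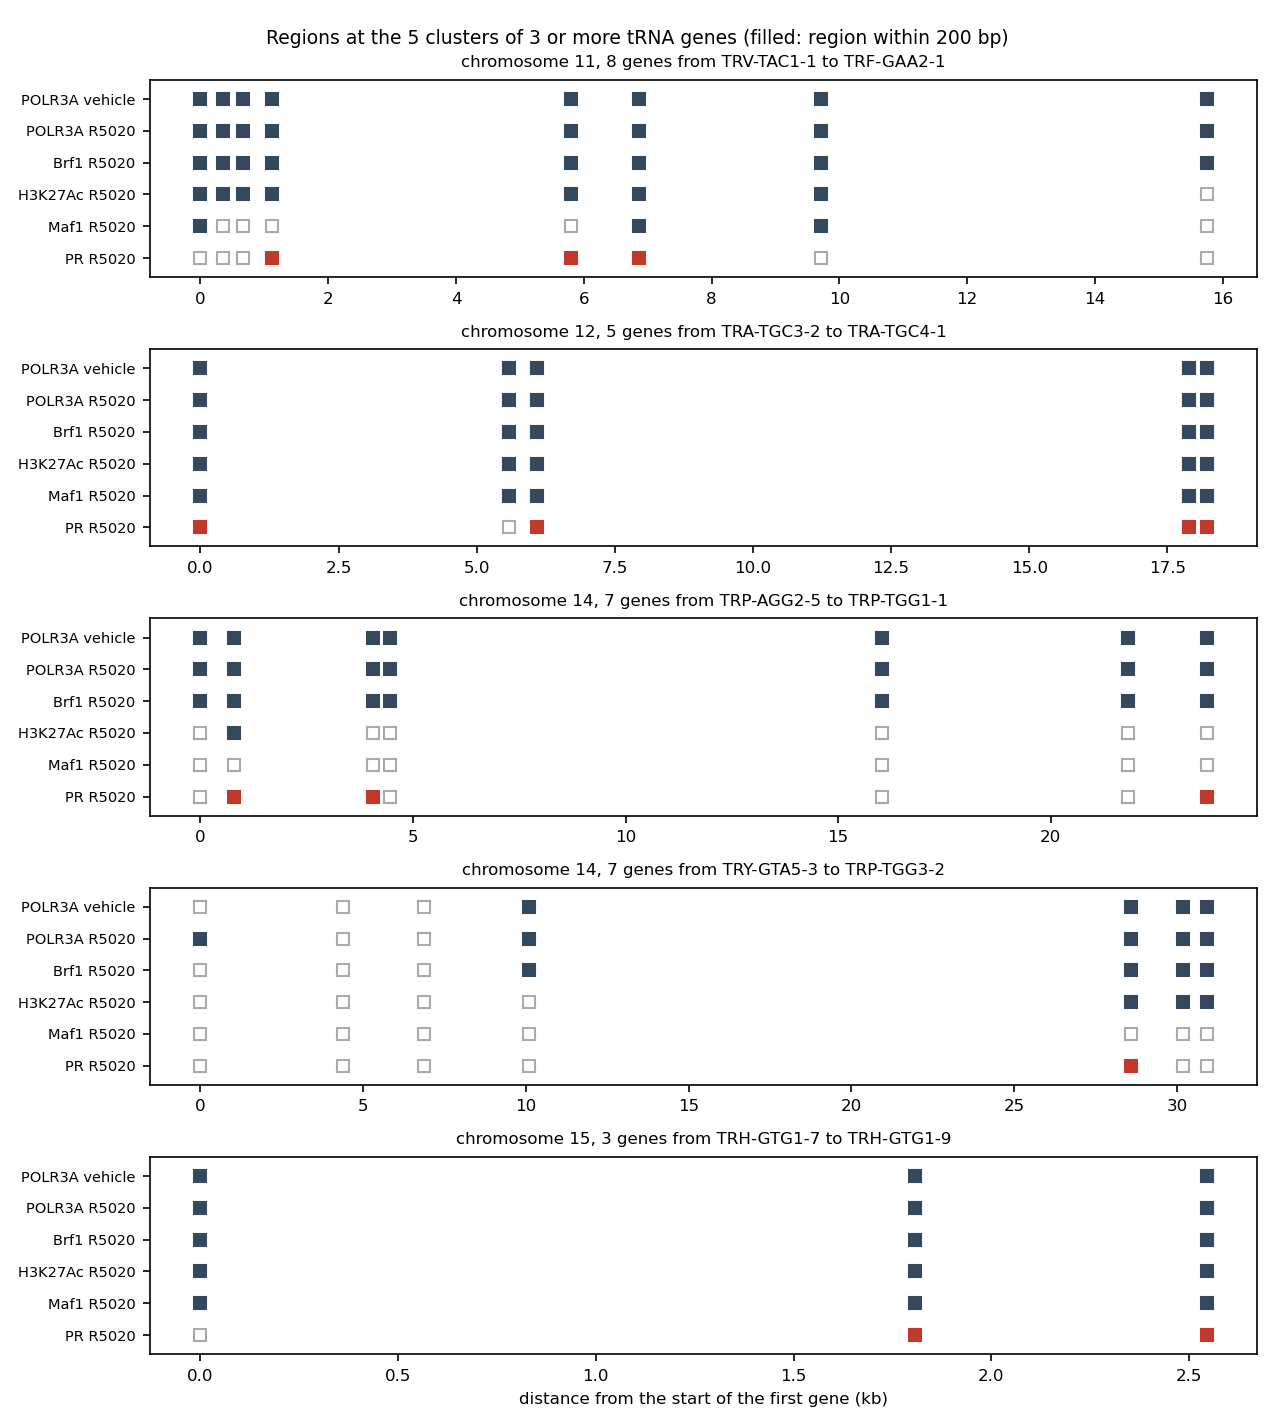
The 5 clusters of 3 or more genes, with genes placed by distance in kb from the first (x axis) and a square per gene for each of 6 lists (filled, region within 200 bp; open, none; PR in red). R5020 Maf1 is at 5 of 5 genes of the chromosome 12 cluster and at 0 of 7 in each chromosome 14 cluster.

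In the naming scheme of tRNA genes, copies that share the number after the anticodon encode the same mature tRNA, which lets loci of like sequence be set side by side. Of 8 such families with several copies among the 66, TRF-GAA1 (phenylalanine) has 4. TRF-GAA1-3, TRF-GAA1-4 and TRF-GAA1-6 had POLR3A folds of 48.6, 56.4 and 46.5 with vehicle and 51.6, 65.9 and 44.7 with R5020, while TRF-GAA1-5 had 5.72 and 10.0. H3K27Ac, Brf1, POLR3G and R5020 Maf1 were at the first 3 and not at TRF-GAA1-5. R5020 PR was at TRF-GAA1-3 (fold 4.12) and TRF-GAA1-4 (35.4).

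TRN-GTT2 (asparagine) also had a low copy: TRN-GTT2-3, without Brf1, had POLR3A folds of 7.97 and 11.6, TRN-GTT2-4 had 48.3 and 46.7, and TRN-GTT2-6 had 46.5 and 44.7. TRN-GTT2-4 carried R5020 PR (10.7) with no H3K27Ac and no Maf1, and TRN-GTT2-6 carried all 3. The TRD-GTC2 copies (aspartate) had POLR3A folds of 51.0 to 56.4 with vehicle and 46.0 to 65.9 with R5020. All 3 had R5020 Maf1, and R5020 PR was at TRD-GTC2-10 alone. Of the 3 TRP-AGG2 copies, Maf1 was at TRP-AGG2-4 and not at the chromosome 14 copies TRP-AGG2-5 and TRP-AGG2-6. How reads that match several copies were handled is not given in the sources used here.

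By isotype, 20 kinds were represented, each by 6 genes or fewer. R5020 PR was at 3 of 3 alanine, 3 of 3 glutamate, 2 of 2 isoleucine and 4 of 6 proline genes. It was at 0 of 5 tyrosine, 0 of 4 valine and 0 of 2 cysteine genes. R5020 Maf1 was at 3 of 3 histidine, 3 of 4 aspartate and 3 of 5 phenylalanine genes, and at 0 of 4 leucine and 0 of 5 tyrosine genes. All 5 tyrosine genes lie in the chromosome 14 cluster described above, so isotype and locus cannot be told apart for them. The same holds for the 3 histidine genes, which form the chromosome 15 cluster. The alanine genes TRA-TGC3-2 and TRA-TGC4-1 share the chromosome 12 cluster, and the leucine genes TRL-AAG2-3 and TRL-TAG2-1 a chromosome 14 cluster. Isotype shares were not computed over all 422 tRNA genes.

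For 20 of the 66 genes the nearest protein-coding gene began or ended within 1 kb. H3K27Ac was at 18 of these 20 (90%) and at 25 of the 46 others (54.3%) with R5020, a difference of 35.7 points (11.4 to 51.6). R5020 PR was at 10 of 20 (50%) and 21 of 46 (45.7%), which is 4.35 points apart (-20.2 to 28.5, an interval on both sides of 0). For R5020 Maf1 the shares were 55.0% and 32.6%, a difference of 22.4 points (-2.91 to 44.9). Unlike the differences given earlier, these were not limited to genes with POLR3A. With R5020, POLR3A was at 20 of the 20 and at 42 of the 46. The genes with no region in any list were all among the 46. This split was not made for the other tRNA genes.

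For comparison, 8 other polymerase III genes on the same chromosomes were looked up: the RNase P RNA gene RPPH1, the 7SL genes RN7SL1 and RN7SL2, and the U6 genes RNU6-1, RNU6-2, RNU6-7, RNU6-8 and RNU6-9. RPPH1 and the U6 genes have promoters upstream of the gene and use another form of TFIIIB, without Brf1. POLR3A and H3K27Ac were at 8 of the 8 in both treatments. PR was at 3 with vehicle and 8 with R5020, with R5020 folds from 4.97 at RN7SL1 to 33.8 at RNU6-7, and Maf1 at 0 with vehicle and 6 with R5020. Brf1 was at 2 with vehicle, the 7SL genes, and at 3 with R5020, the third being RNU6-1 with a fold of 9.23.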

How the data were processed

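Each of the 16 peak lists stands for 1 antibody and treatment. Per the submitters' processing notes, cutadapt, Bowtie2 and MACS2 were used with hg38; settings, versions, the control libraries and how the 3 replicates were combined are not given in the sources used here. The authors deposited for each peak a fold enrichment, a ratio over the caller's background and the -log10 of its q-value (at least 1.30). The deposited values give an order within 1 list. Folds of a gene with vehicle and with R5020 are printed side by side, but the lists differ in scale. For Brf1 the list medians were 18.7 with vehicle and 4.98 with R5020, and the highest folds 51.5 and 91.0. Changes in fold between treatments were not tested. Read depth is unknown, since the lists hold no reads, and depth cannot be told apart from treatment in the number of regions listed.

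A region was assigned to each RefSeq GRCh38.p14 tRNA gene span that it reached within 200 bp (0 columns of the files were left unmapped). A gene's fold is that of its highest region. Intervals are 95% Wilson and Newcombe intervals. Clustered genes share regions and are not independent. The join was tested on simulated data (60 planted regions, 45 of 45 genes within 200 bp of them recovered over 422 genes). Python 3.11.15, numpy 2.4.6, pandas 2.3.3, scipy 1.17.1 and matplotlib 3.10.9 were used.

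The genes and lists were chosen with earlier results of these data known. Named are the 10 genes with the highest R5020 PR and Maf1 folds, those with PR or Maf1 under vehicle, those with POLR3A or Brf1 in 1 treatment only, the highest POLR3A and Brf1 folds, genes with POLR3GL or with no region, and clusters of 3 or more. Families, H3K27Ac changes and the lowest POLR3A genes were added after their values were seen. Alternatives were -log10 q of at least 5, joining at 0 bp and 1 kb, equal numbers of top regions, 1 count per cluster and other linking distances; joining by the summit was added after seeing the data.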

Additional observations from a re-analysis of the deposited data

How the results depend on the processing

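No paired analysis was possible because there is 1 list for the 3 libraries of a group and no list carries a replicate number; for the same reason no replicate could be left out. Of 92 alternative values, 74 stayed within 1.5 times the main count or within the main interval, which covers every alternative for POLR3A, Brf1, POLR3C and POLR3G. Some of the 74 could not have moved. With equal numbers of top regions the shorter list of each antibody was kept whole, so its count was fixed. The POLR3GL count of 0 with vehicle could not fall under the stricter settings. The PR count with vehicle (3) was 1 with -log10 q of at least 5, 1 when the region had to overlap the gene, 7 at 1 kb and 1 by the summit. The PR count with R5020 (31) was 19 on overlap, 47 at 1 kb, 4 with equal numbers of top regions and 16 by the summit. The Maf1 count with vehicle (5) was 1 with -log10 q of at least 5, 2 on overlap and 3 by the summit, and with R5020 (26) it was 0 with equal numbers of top regions. POLR3GL with R5020 (6) was 1 with -log10 q of at least 5. H3K27Ac was 12 by the summit in both treatments, and 24 on overlap with R5020. The difference in R5020 PR between genes with and without H3K27Ac was -30.2 points by the summit, a setting that leaves H3K27Ac at 12 genes, and 18 points (-5.19 to 40.2) on overlap. The difference in R5020 Maf1 between genes with and without PR was 50.5 points (22.1 to 66) at 1 kb, 45.8 (18.9 to 64.1) on overlap, 21.7 (-2.06 to 42.5) with -log10 q of at least 5 and 9.51 (-16.6 to 38.1) by the summit; the cause was not tested.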
